A study of Saccharomyces cerevisiae with 30 samples.

Results

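The genes described here are the pyruvate decarboxylase genes PDC1, PDC5 and PDC6 and the alcohol dehydrogenase genes ADH1, ADH2, ADH3, ADH4 and ADH5 of budding yeast, Saccharomyces cerevisiae. They were selected by gene name and make up 8 of the 7127 features in the count table; all 8 passed the filter on low counts. RNA sequencing had been done in 2 strains of the CEN.PK122-alpha background, one carrying the yaf9W89A change in the pocket of the YEATS domain and one wild type (WT). Yaf9 is a chromatin protein whose YEATS domain binds acylated lysines of histones. Both strains were grown in a chemostat, first in rich medium until starved and then, 6 hours later, with a slow feed of low-glucose medium, and 5 ml of cells were taken at 5 time points in each of 3 consecutive cycles. This gives 10 groups of 3 libraries, W89A at time points 1 to 5 and WT at time points 1 to 5, with totals of 16540627 to 20260295 counts per library.

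Under such feeding yeast cultures enter the yeast metabolic cycle, in which oxygen use and large parts of the transcriptome rise and fall together. Pyruvate decarboxylase splits pyruvate into acetaldehyde and carbon dioxide, and alcohol dehydrogenases convert acetaldehyde and ethanol into each other. PDC1 encodes the main decarboxylase, PDC5 a second isozyme known to increase when PDC1 is lost, and PDC6 a minor isozyme. ADH1 encodes the cytosolic enzyme that makes ethanol, and ADH2 the glucose-repressed cytosolic enzyme that oxidises it. ADH3 encodes a mitochondrial isozyme, ADH4 an enzyme of an unrelated family known for its induction by zinc shortage, and ADH5 a minor isozyme related to ADH1.

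The labels name no separate cultures for the 3 cycles of a strain. Strain and culture therefore cannot be told apart, and the p-values below measure only the spread between cycles. The W89A libraries of cycle 1 at time points 4 and 5 carry the placement of the authors' deposited comparison tables, which is the reverse of the order of their titles. Of the 30 libraries, 3 lay closer to another time point of their strain than to their own: WT time point 1 cycle 1 (closer to time point 2), WT time point 2 cycle 3 (closer to time point 1) and W89A time point 3 cycle 3 (closer to time point 2). Each library was left out of its own group's mean, which so rested on fewer libraries than the other means. This tends to enlarge the distance to the own group. For WT time point 1 cycle 1 the distances were close, 0.463 to its own group and 0.442 to time point 2, so its placement is not shown to be off. W89A time point 4 cycle 3 lay farthest from its own group. The alpha mating type in the strain name was set against marker genes over all 30 libraries, in CPM. CPM are counts scaled to the library total times its TMM factor, 0.87 to 1.16 over the libraries. The 4 alpha-cell genes summed to 1027 to 6698 CPM, and the 5 a-cell genes to 23.83 to 75.2 CPM. MFALPHA1 stood at 779.3 to 4270 CPM, and the a-cell gene MFA1 at 1.563 to 10.1 CPM. Single genes were less clear: the alpha-cell gene MFALPHA2, at 9.535 to 285.5 CPM, overlapped the a-cell gene STE2, at 7.843 to 40.9 CPM.

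Because some of the genes are close copies, their first 60 coding bases are shown, from RefSeq's R64 assembly, with capitals at the bases that differ from the first gene of each set.
ADH1 (YOL086C, chrXV:160535-160594, minus strand): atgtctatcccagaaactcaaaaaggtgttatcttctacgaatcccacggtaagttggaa
ADH2 (YMR303C, chrXIII:874278-874337, minus strand): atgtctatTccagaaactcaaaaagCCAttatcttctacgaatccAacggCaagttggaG
PDC1 (YLR044C, chrXII:234022-234081, minus strand): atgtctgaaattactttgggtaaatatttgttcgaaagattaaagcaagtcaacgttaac
PDC5 (YLR134W, chrXII:410723-410782, plus strand): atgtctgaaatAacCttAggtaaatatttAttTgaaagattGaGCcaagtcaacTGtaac
PDC6 (YGR087C, chrVII:652922-652981, minus strand): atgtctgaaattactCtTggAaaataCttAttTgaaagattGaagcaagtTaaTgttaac

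In these stretches ADH2 differed from ADH1 at 7 bases, PDC5 from PDC1 at 10 and PDC6 from PDC1 at 9. Over the whole coding sequence ADH1 and ADH2 were 88.8% identical, and 14.0% of ADH1's windows of 50 bases occurred unchanged in ADH2. PDC1 and PDC5 were 87.2% identical and shared 0.974% of such windows, and PDC1 and PDC6, at 75.0% identity, shared none. How reads matching both copies had been counted is not given in the sources used here, so counts of ADH1 and ADH2, and of PDC1 and PDC5, are uncertain by the reads of those shared stretches. No other annotated gene overlapped any of the 8 in R64.

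Upstream sequences are shown for the genes with the largest swing over the cycle, ADH2, and the largest strain difference, ADH5. Each window holds 300 bases and begins 400 bases before the start codon, 5′ to 3′ on the coding strand in R64. Capitals mark matches, on either strand, to TTGGAG, the core bound by Adr1, a known activator of ADH2, or to TGACTCA, the site of Gcn4, the activator of amino acid synthesis genes.
ADH2 (chrXIII:874438-874737, minus strand): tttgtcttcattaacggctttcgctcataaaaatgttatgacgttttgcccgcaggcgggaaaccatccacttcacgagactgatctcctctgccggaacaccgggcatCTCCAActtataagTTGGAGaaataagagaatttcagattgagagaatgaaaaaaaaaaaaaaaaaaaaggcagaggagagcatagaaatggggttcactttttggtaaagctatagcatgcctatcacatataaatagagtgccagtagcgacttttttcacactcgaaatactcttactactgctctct
ADH5 (chrII:533362-533661, plus strand): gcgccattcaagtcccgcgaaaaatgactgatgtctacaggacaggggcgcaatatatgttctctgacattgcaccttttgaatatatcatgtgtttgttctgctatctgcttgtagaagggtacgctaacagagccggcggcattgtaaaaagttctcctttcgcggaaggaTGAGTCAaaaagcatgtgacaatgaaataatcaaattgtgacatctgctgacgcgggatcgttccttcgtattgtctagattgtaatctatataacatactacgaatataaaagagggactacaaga

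The ADH2 window held 2 TTGGAG matches, which together form a run of 20 bases equal to its own reverse complement, CTCCAActtataagTTGGAG (chrXIII:874609-874628). Among 6001 such windows of the genome, 11.4% held at least 1 TTGGAG match and 0.85% held 2 or more. The ADH5 window held 1 TGACTCA match, 227 bases before the start codon and read as TGAGTCA on the coding strand, and 2.88% of all windows held one. The windows of the other 6 genes held neither motif. The site of the zinc regulator Zap1, searched likewise on both strands, had 0 matches in all 8 windows, ADH4 included, and was held by 0.0833% of all windows. These matches describe letters in the windows and are not binding data.

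Levels of different genes are compared per kilobase of the annotated gene (CPM per kb). At time point 5, ADH2 was the most abundant of the 8 transcripts in both strains, at a mean of 10480 CPM per kb in W89A and 14300 in WT, ahead of PDC1 at 1706 in W89A and 1703 in WT. PDC1 led at time point 3 in W89A, at 1773 CPM per kb, against 1403 in WT, where ADH1 led at 1839 CPM per kb, against 1525 in W89A. ADH2 was then down to 76.17 CPM per kb in W89A and 204.8 in WT. PDC5, PDC6 and ADH4 were the lowest members at time point 5. Their means there were 20.13 (PDC5), 30.87 (PDC6) and 56.32 (ADH4) CPM per kb in W89A, and 23.71, 38.52 and 56.14 in WT. ADH5 was also low in WT. Its WT mean at time point 1 was 45.57 CPM per kb, against 77.55 for ADH4 and 81.78 for PDC6. All 8 genes together took 0.53 to 0.629% of the counts of the W89A libraries and 0.604 to 0.766% of those of the WT libraries at time point 3. By time point 5 they took 1.44 to 1.5% in W89A and 1.69 to 1.8% in WT.

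The change over the cycle was tested within each strain. In W89A 7 of the 8 genes changed, against 75.5% of all 6256 genes tested, and in WT all 8 did, against 81.5%. The exception was PDC1 in W89A, whose fitted level spanned only 0.16 on the log2 scale over the 5 time points (edgeR adjusted p = 0.896), against 1.14 in WT (edgeR adjusted p = 6.97e-06). ADH2 had the widest span, 7.10 on the log2 scale in W89A and 6.13 in WT. Peak and trough of the group means fell at the same time points in both strains for PDC6, ADH1, ADH2 and ADH4. The highest mean of PDC5 fell at time point 3 in W89A and 4 in WT, that of ADH3 at time point 4 in W89A and 3 in WT, and that of ADH5 at time point 3 in W89A and 5 in WT. The libraries of the highest time point lay wholly above those of the next for ADH2, ADH3 and ADH5 in W89A and for PDC1, PDC6, ADH1, ADH2 and ADH4 in WT; for the others these overlapped. For PDC6 in WT the gap was slight, with 91.95 CPM as the lowest value of time point 1 and 91.89 CPM as the highest of time point 4. Its WT libraries of time point 2 overlapped those of time point 1, with 141.5 CPM in cycle 3. The mean levels of ADH2 ran in the same order in both strains, time point 5 highest, then 4, 1, 2 and 3. Time points 4 and 1 overlapped in W89A, and 2 and 3 in WT. In WT the order of 2 and 3, and so the trough, rests on time point 2 cycle 3, at 547.6 CPM. The other WT libraries of time point 2 held 155.7 and 138.5 CPM, against 229.3, 126.6 and 287.4 CPM at time point 3. PDC5's change over the WT cycle is fragile: its span was 0.52 (edgeR adjusted p = 0.0449), and the call was lost in 12 of 15 fits that left out 1 WT library (edgeR adjusted p up to 0.146). That of PDC6 in WT was lost without time point 1 cycle 3 (0.0629). With the W89A libraries of cycle 1 placed by title, the calls of ADH1 (edgeR adjusted p = 0.293) and ADH3 (0.143) over the W89A cycle were lost.

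Averaged over the 5 time points, 4 of the 8 genes differed between the strains, against 48.8% of all genes tested (27.1% higher, 21.7% lower). PDC1, PDC5 and PDC6 were lower in W89A, and ADH5 was higher. PDC1 fell by 0.27 ± 0.08 on the log2 scale (edgeR adjusted p = 0.00567), PDC5 by 0.23 ± 0.07 (0.00675) and PDC6 by 0.93 ± 0.18 (0.000182), each ± SE, whereas ADH5 rose by 1.33 ± 0.12, or 2.51-fold (1.77e-08). None of the 4 calls was lost in 30 fits that each left out 1 library.

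The strain difference itself changed with time for 4 of the 8 genes, PDC1 (edgeR adjusted p = 0.0048), ADH2 (0.0132), ADH3 (0.00116) and ADH5 (8.89e-05), by a test of the strain by time point interaction that called 41.9% of all genes. With each strain's cycle number as a block, which the labels support within a strain, PDC5 (edgeR adjusted p = 0.0343) and PDC6 (0.0102) passed as well. That fit called 2869 of 6256 genes. Without time point 3, a choice made after seeing the data, only 458 of 6222 genes were called. Of the 8 genes, ADH5 alone passed then. The edgeR adjusted p was 0.229 for PDC1, 0.161 for ADH2 and 0.409 for ADH3. By title order of the 2 W89A libraries ADH2 missed the threshold (edgeR adjusted p = 0.0515).

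**Figure D1:**
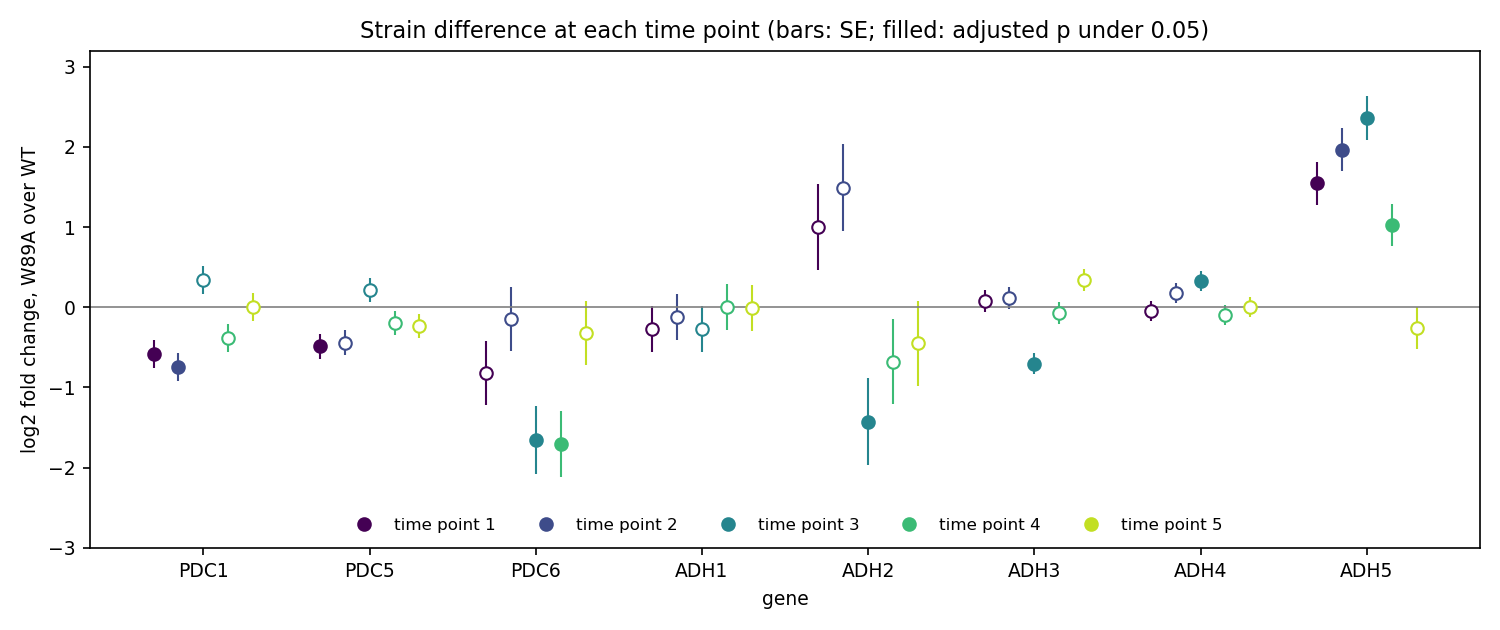
Log2 fold change of W89A over WT for the 8 genes (x axis) at each of the 5 time points, as fitted by edgeR from 3 libraries per group; bars are 1 SE, and filled points have an adjusted p under 0.05. ADH5 lies between 1.03 and 2.37 at time points 1 to 4 and at -0.26 at time point 5, and the PDC6 and ADH2 points of time point 3 lie below 0.

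At time point 1, 3 of the 8 genes passed the test, against 8.01% of all genes (4.41% higher, 3.6% lower): ADH5 was higher in W89A, and PDC1 and PDC5 were lower. ADH5 was also higher and PDC1 lower at time point 2, 2 of 8 against 13.1% (8.44% higher, 4.64% lower). Time point 3 had 5 of 8 past the test, against 51.1% (28.2% higher, 22.9% lower): ADH5 and ADH4 were higher, and PDC6, ADH2 and ADH3 were lower. ADH5 was higher and PDC6 lower at time point 4, 2 of 8 against 21.3% (10.9% higher, 10.5% lower). For time point 5 edgeR called 0 of 8, against 9.51% (5.07% higher, 4.44% lower), although 1 of the 8 had an unadjusted p under 0.05. DESeq2 also called 0 of 8, and 869 of 6256 genes. The 3 libraries of one strain lay wholly above or below the 3 of the other for 4, 3, 6, 3 and 2 of the 8 genes at time points 1 to 5, against 35.2%, 32.9%, 59.8%, 35% and 35.9% of all genes. The median log2 fold change of the 8 genes was -0.16, 0.001, -0.03, -0.15 and -0.12 at time points 1 to 5, against -0.01, 0, 0.08, 0.01 and 0.01 for all genes tested.

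The sums of 3 lists of 10 phase genes each also differed between the strains, without overlap, at several time points. At time point 3 ribosome biogenesis genes summed to 2479 to 4981 CPM in W89A and 791.9 to 1049 CPM in WT. Mitochondrial ribosome genes summed to 703.9 to 757.8 CPM in W89A and 1367 to 1769 CPM in WT, and stress genes to 482.5 to 1174 CPM in W89A and 2529 to 4182 CPM in WT. Ribosome biogenesis genes also stood apart at time point 1, with 3599 to 4345 CPM in W89A and 4489 to 6921 CPM in WT, and at time point 5, with 1478 to 1676 CPM in W89A and 1167 to 1221 CPM in WT. Mitochondrial ribosome genes did so at time point 4, with 1189 to 1579 CPM in W89A and 1873 to 2101 CPM in WT, and stress genes at time point 5, with 14090 to 16710 CPM in W89A and 21160 to 26600 CPM in WT. The part of these sums in the differences of the 8 genes was not tested.

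PDC1, the main decarboxylase, lacked in W89A the high levels seen in WT at the first time points. Its level at time point 1 was 3258, 2915 and 3080 CPM in cycles 1 to 3 of W89A, against 4384, 4558 and 4869 CPM in WT. Its level at time point 2 was 3052, 3270 and 3018 CPM in W89A, against 4880, 5514 and 5253 CPM in WT. Every W89A library lay below every WT library at both times. The fall was 0.58 ± 0.18 on the log2 scale at time point 1 (edgeR adjusted p = 0.0421) and 0.74 ± 0.18 at time point 2 (0.00701). The call at time point 1 was lost in all 6 fits that left out 1 of its libraries (adjusted p up to 0.151), as was that of PDC5 (up to 0.2). By title order of the 2 W89A libraries both were lost as well (0.0782 for PDC1 and 0.0964 for PDC5). A fit of only the 6 libraries of time point 1, a choice made after seeing the data, also lost that of PDC1 (edgeR adjusted p = 0.0626).

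The order of the strains was the other way round for PDC1 at time point 3, with 2735, 3089 and 3176 CPM in W89A and 2223, 2432 and 2468 CPM in WT. The libraries did not overlap, but the difference of 0.34 did not pass the test (edgeR adjusted p = 0.11). The authors' deposited table gives PDC1 there 0.28 with an adjusted p of 0.0424. The W89A libraries of time point 4 held 2968, 3272 and 2133 CPM and the WT libraries 3740, 2972 and 4164 CPM, and at time point 5 the W89A libraries held 2364, 2454 and 3844 CPM and the WT libraries 2863, 2995 and 2788 CPM. The strains overlapped at both. The highest of the 5 means exceeded the lowest 1.12-fold in W89A and 2.2-fold in WT.

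PDC5, the second isozyme, ran far below PDC1 throughout. PDC5 at time point 1 stood at 23.28, 20.23 and 25.65 CPM in W89A, against 34.57, 29.71 and 32.68 CPM in WT, without overlap, a fall of 0.49 ± 0.15 on the log2 scale (edgeR adjusted p = 0.0486). Over the other time points it ranged between 23.43 and 48.24 CPM in W89A and between 29.16 and 49.81 CPM in WT, and none of these differences passed the test; at time point 2 the difference was -0.44 ± 0.15 (edgeR adjusted p = 0.0559). The length-scaled ratio of PDC5 to PDC1 ranged from 0.00694 to 0.0196 over the W89A libraries and from 0.00529 to 0.0165 over the WT libraries. These ratios are of the size of the share of coding windows that PDC1 and PDC5 have in common (0.974%), so how many of the PDC5 counts are reads of PDC1 cannot be told from these counts; their part in the PDC5 levels and calls was not tested.

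PDC6, the minor isozyme, was lower in W89A on average, and at single time points it passed the test at 3 and 4. Its interaction did not pass in the main fit (edgeR adjusted p = 0.0648), though it did with each strain's cycle number as a block (0.0102). A fall particular to those time points is therefore not shown by the main fit. Its time point 3 levels were 10.16, 12.13 and 19.45 CPM in W89A, against 46.52, 32.95 and 52.28 CPM in WT. Its time point 4 levels were 27.02, 24.54 and 24.72 CPM in W89A, against 68.99, 91.89 and 88.04 CPM in WT. The strains did not overlap at either time. The falls were 1.66 ± 0.42 (edgeR adjusted p = 0.002) and 1.71 ± 0.41 (0.00569) on the log2 scale, and no fit without 1 library lost either call.

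Cycle 3 gave the highest PDC6 value of its group at time points 1, 2 and 3 in both strains, and at time point 5 in W89A. The W89A libraries of time point 1 held 58.22, 68.23 and 108.6 CPM and the WT libraries 91.95, 137.7 and 185.4 CPM, and the difference of -0.82 ± 0.40 did not pass the test (edgeR adjusted p = 0.188); the authors' deposited table gives an adjusted p of 0.0207. Those of time point 2 held 49.09, 63.85 and 94.93 CPM in W89A and 38.38, 49.72 and 141.5 CPM in WT, and the strains overlapped. The W89A libraries of time point 5 held 37.15, 34.82 and 84.74 CPM and the WT libraries 64.3, 75.78 and 55.45 CPM, again with overlap.

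**Figure D2:**
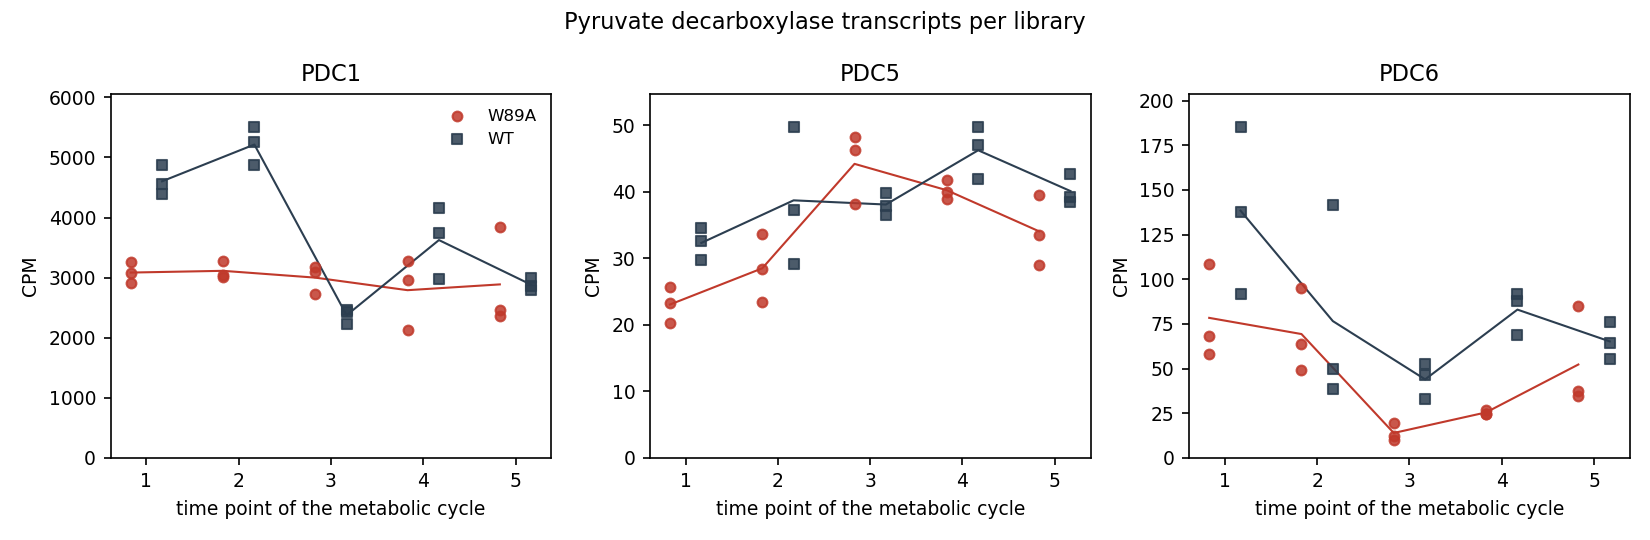
CPM of PDC1, PDC5 and PDC6 in each library (points, 3 per group) against the time point of the cycle, with lines through the group means of W89A and WT. PDC1 in W89A stays between 2133 and 3844 CPM, while WT reaches 5514 CPM at time point 2; PDC6 in W89A lies below WT at time points 3 and 4.

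ADH1, the ethanol-forming enzyme, peaked at time point 4 in both strains and passed no strain comparison. Its libraries at time point 4 held 5172, 6109 and 1913 CPM in W89A and 4269, 3422 and 5470 CPM in WT. The low W89A value is that of cycle 3, the library farthest from its group; with it the log2 difference was 0.004 (edgeR adjusted p = 0.996), and without it 0.36 ± 0.24 (0.279). ADH1 was at its lowest at time point 5, with 1188, 1203 and 1010 CPM in W89A and 1175, 1097 and 1141 CPM in WT. At time points 1 to 3 it ranged from 1223 to 2333 CPM in W89A and from 1492 to 2673 CPM in WT. The highest of the 5 means exceeded the lowest 3.88-fold in W89A and 3.86-fold in WT.

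ADH2, the ethanol-oxidising enzyme, showed the widest swing of the 8 genes in both strains, with the highest mean at 138 times the lowest in W89A and 69.8 times in WT. Its lowest mean was at time point 3, in WT only with time point 2 cycle 3 counted. At time point 3 it held 71.01, 71.74 and 96.5 CPM in W89A, against 229.3, 126.6 and 287.4 CPM in WT. All 3 W89A libraries lay below all 3 WT libraries, and ADH2 fell by 1.43 ± 0.54 on the log2 scale (edgeR adjusted p = 0.0302). That call was lost in 5 of 6 fits without 1 library (edgeR adjusted p up to 0.116), all but the one without WT cycle 2, and by title order of the 2 W89A libraries (0.0648).

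At time points 1 and 2 the W89A libraries had the higher ADH2 levels. Those of time point 1 held 2669, 3023 and 2659 CPM, against 1163, 1400 and 1606 CPM in WT, without overlap. The difference of 1.002 ± 0.532 did not pass the test with the spread shared over all 30 libraries (edgeR adjusted p = 0.23). It passed in a fit of only the 6 libraries of that time point, a choice made after seeing the data (1.01, edgeR adjusted p = 0.00869), and in the authors' deposited table (1.02, adjusted p 2.03e-10). Those of time point 2 held 507.3, 664.1 and 1197 CPM, against 155.7, 138.5 and 547.6 CPM in WT. The highest WT value, of the cycle 3 library that lay closer to time point 1, overlapped the W89A range. The difference at time point 2 was 1.49 ± 0.54 (edgeR adjusted p = 0.0695), and 2.42 ± 0.57 (0.00755) without that library. With every library kept, DESeq2 gave 1.48 (adjusted p = 0.0246), and the authors' deposited table gives 1.49 (adjusted p 0.192).

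ADH2 climbed in both strains at the last time points. ADH2 at time point 4 stood at 4782, 5151 and 655.1 CPM in W89A, against 6349, 2996 and 7620 CPM in WT. The low W89A value was again cycle 3, and the log2 difference was -0.68 (edgeR adjusted p = 0.383), or -0.19 (0.801) without that library. ADH2 at time point 5 stood at 11180, 12050 and 9700 CPM in W89A, against 15550, 14590 and 14770 CPM in WT. The W89A libraries all lay lower, but the difference of -0.45 ± 0.53 did not pass (edgeR adjusted p = 0.624). With only the 6 libraries of time point 5 it was -0.46 and passed (edgeR adjusted p = 0.014), as it did in the authors' deposited table (-0.46, adjusted p 0.000155).

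The ratio of ADH2 to ADH1, per length, sets the ethanol-oxidising against the ethanol-forming isozyme within each library. Its median was 1.81 in W89A and 0.673 in WT at time point 1, and 0.285 in W89A and 0.0943 in WT at time point 2. The median at time point 3 was 0.0423 in W89A and 0.114 in WT, at time point 4 0.843 in W89A and 1.39 in WT, and at time point 5 9.60 in W89A and 13.2 in WT. The W89A libraries thus had the higher ratios at time points 1 and 2 and the lower ones at time points 3 and 5, with no overlap between strains. At time point 4 they overlapped, with 0.342 to 0.925 in W89A and 0.876 to 1.49 in WT. ADH1 and ADH2 have 14.0% of their coding windows in common, and the ratios at time point 3 were only 0.038 to 0.131. How many of the ADH2 counts there are reads of ADH1 cannot be told from these counts. The same holds for ADH1 at time point 5, where the ratios were 9.41 to 13.3. The part of shared reads in these levels, ratios and calls was not tested.

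**Figure D3:**
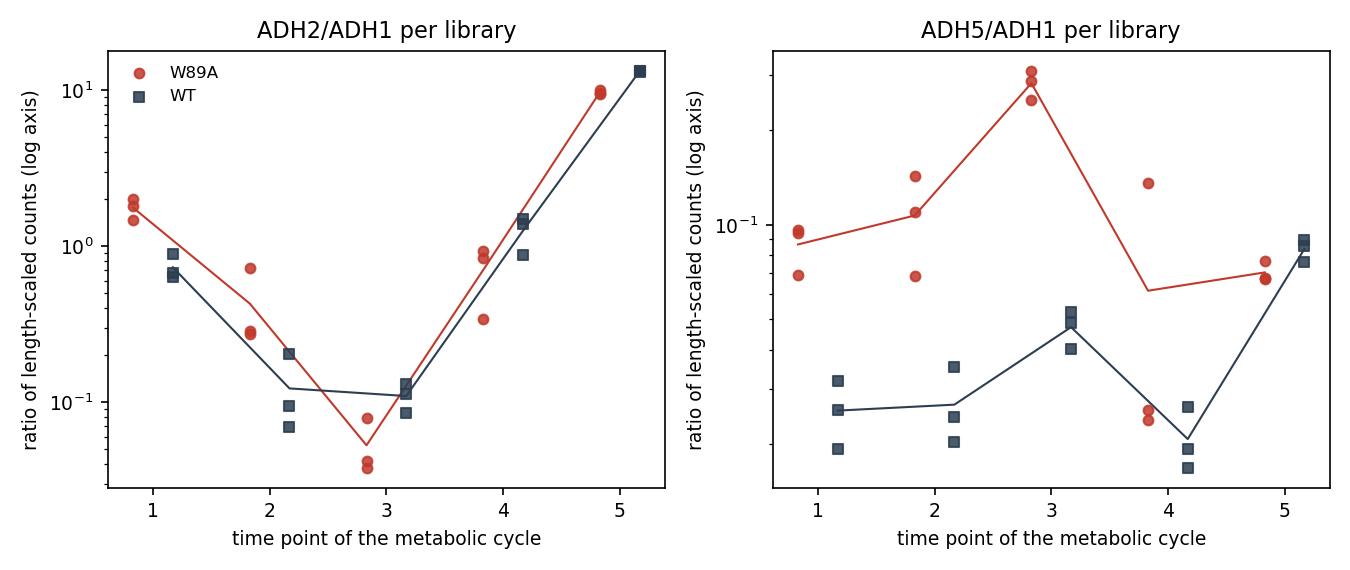
Ratio of length-scaled counts of ADH2 to ADH1 (left) and ADH5 to ADH1 (right) in each library, on log axes, against the time point, with lines through the group means of W89A and WT. ADH2 to ADH1 spans from 0.038 to 10.02 in W89A and from 0.069 to 13.3 in WT, and ADH5 to ADH1 peaks at time point 3 in W89A.

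ADH3, the mitochondrial isozyme, differed between the strains at time point 3, where WT had its peak. It stood there at 703.7, 743.5 and 581 CPM in W89A, against 1311, 948.6 and 1038 CPM in WT, without overlap. The fall was 0.70 ± 0.14 on the log2 scale (edgeR adjusted p = 0.000128), and no fit without 1 library lost it. ADH3 at time point 4 held 883.1, 866.8 and 904.4 CPM in W89A and 886.4, 1020 and 874.7 CPM in WT, with overlap. At time points 1 and 2 it ranged from 567.7 to 672 CPM in W89A and from 538.1 to 610.7 CPM in WT. ADH3 at time point 5 stood at 695, 632.4 and 527.6 CPM in W89A and 564.1, 419.3 and 478.4 CPM in WT, a difference of 0.34 ± 0.14 that did not pass (edgeR adjusted p = 0.105). The authors' deposited table gives it an adjusted p of 0.0485.

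ADH4, of the unrelated family, peaked at time point 2 in both strains, with 129.3, 131.1 and 91.14 CPM in W89A and 105.9, 102.9 and 101.6 CPM in WT. Its one strain difference past the test was at time point 3, with 76.66, 75.27 and 90.8 CPM in W89A against 61.73, 66.6 and 65.48 CPM in WT, a rise of 0.33 ± 0.12 on the log2 scale (edgeR adjusted p = 0.0302). That call was lost in 3 of 6 fits without 1 library (without W89A cycle 3, WT cycle 1 or WT cycle 3, edgeR adjusted p up to 0.162), in DESeq2 (0.0688), by title order of the 2 W89A libraries (0.05) and under both other scalings of the libraries (0.0696 and 0.187). A fit of only the 6 libraries of time point 3, a choice made after seeing the data, lost it too (edgeR adjusted p = 0.0772). At the remaining time points ADH4 ranged from 51.8 to 97.21 CPM in W89A and from 55.87 to 101.2 CPM in WT.

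ADH5, the minor isozyme, was higher in W89A at time points 1 to 4. ADH5 at time point 1 stood at 173.2, 145.8 and 102.9 CPM in W89A, against 47.32, 50.69 and 46.37 CPM in WT, 2.92-fold higher (edgeR adjusted p = 0.00216). ADH5 at time point 2 stood at 266.7, 257.5 and 113.9 CPM in W89A, against 58.88, 49.46 and 54.92 CPM in WT, 3.91-fold higher (edgeR adjusted p = 5.75e-05). Cycle 3 was the lowest of the W89A libraries at both times and still lay above every WT library.

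The highest ADH5 levels were at time point 3, with 524.6, 547.2 and 309.2 CPM in W89A, against 86.43, 79.31 and 102.3 CPM in WT, 5.15-fold higher (edgeR adjusted p = 2.82e-07). ADH5 at time point 4 stood at 124.3, 158 and 261.3 CPM in W89A, against 82.95, 90.56 and 92.7 CPM in WT, 2.04-fold higher (edgeR adjusted p = 0.008). The strains did not overlap at either time. Without cycle 3 of W89A, the highest at time point 4, the log2 difference there fell to 0.67 and missed the threshold (edgeR adjusted p = 0.0606). The order turned at time point 5, with 80.67, 82.18 and 77.92 CPM in W89A and 90.08, 99 and 98.79 CPM in WT, without overlap. That difference, -0.26, did not pass the test (edgeR adjusted p = 0.563).

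Over the cycle the highest mean of ADH5 was 5.74 times the lowest in W89A and 1.99 times in WT. The ratio of ADH5 to ADH1, per length, was 0.251 to 0.31 in W89A and 0.0401 to 0.0527 in WT at time point 3.

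**Figure D4:**
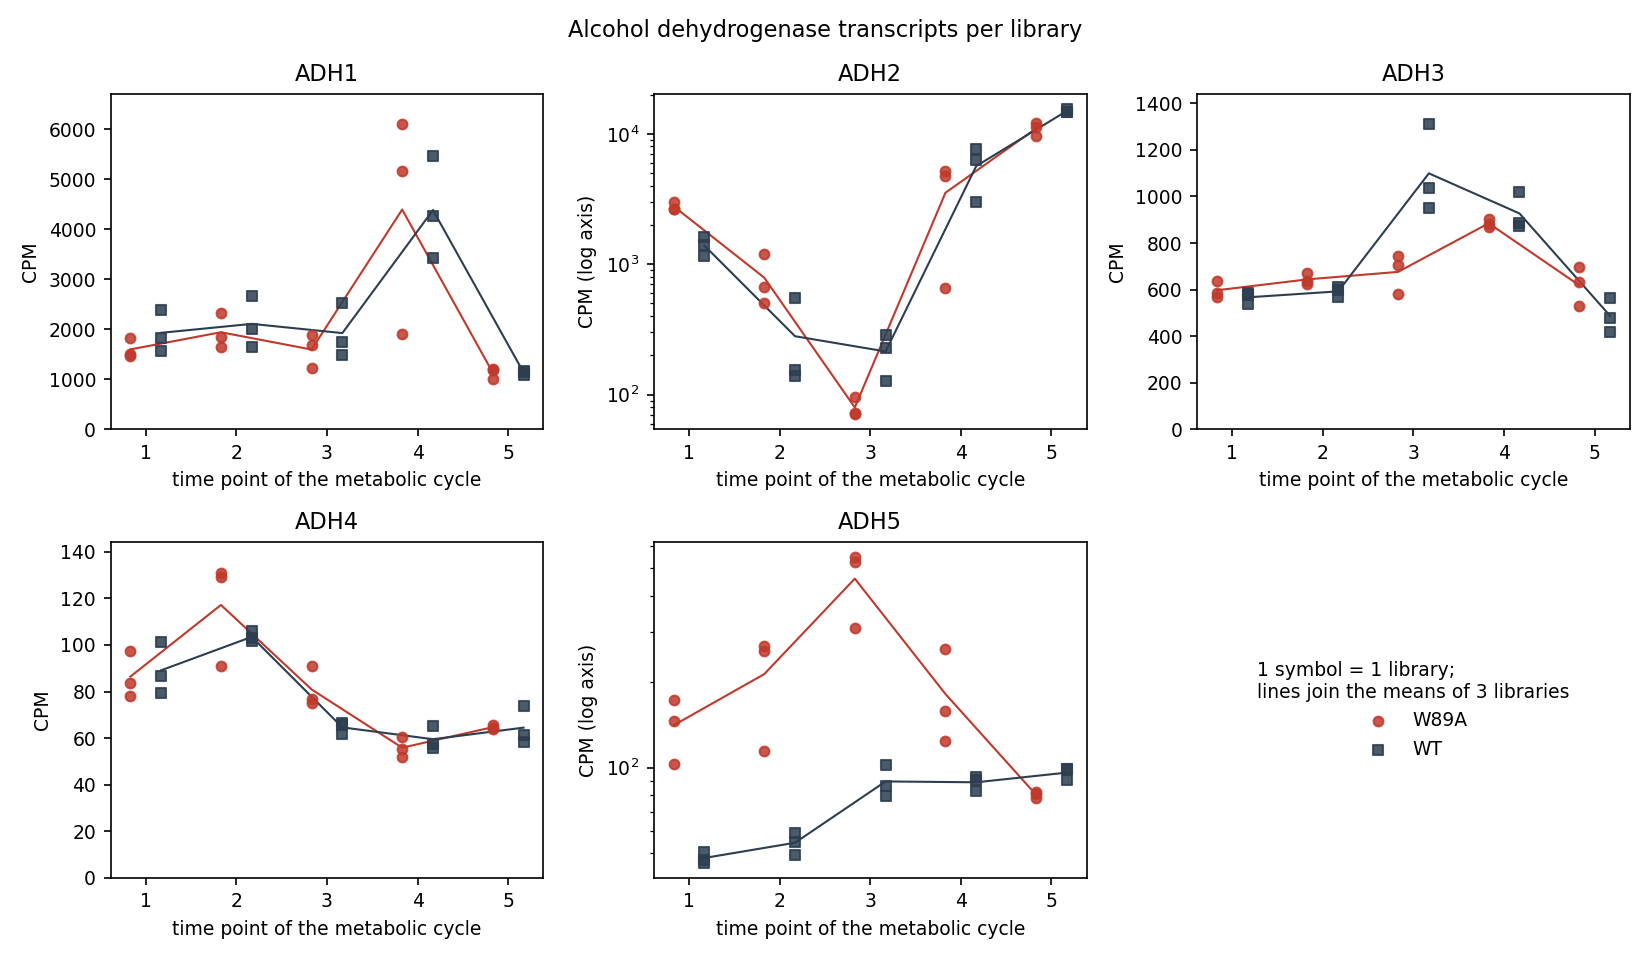
CPM of ADH1 to ADH5 in each library (points, 3 per group) against the time point of the cycle, with lines through the group means of W89A and WT. The axes of ADH2 and ADH5 are logarithmic. ADH2 reaches at least 9700 CPM in both strains at time point 5 and lies below 300 CPM at time point 3, and ADH5 in W89A lies above WT at time points 1 to 4.

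For each of the 8 genes, the 3 genes with the most similar log2 CPM were taken by Pearson correlation over the 30 libraries, among 5262 genes. These libraries share strain and cycle position, so the values only describe which profiles run alike. The partners depend on the measure: by Spearman correlation 12 of these 24 were again among the 3 closest, and none of those of ADH3. ADH2 was closest to FDH1, formate dehydrogenase (r = 0.978), POT1, the peroxisomal thiolase of fatty acid oxidation (0.977), and ALT2 (0.97). ADH3 was closest to RSM10, a protein of the mitochondrial ribosome (0.926), AIM33 (0.922) and IFM1, a mitochondrial translation factor (0.915). ADH1 ran with CPR3, a mitochondrial cyclophilin (0.861), MGE1, a mitochondrial chaperone partner (0.84), and NFS1, which supplies sulfur for iron-sulfur clusters (0.804).

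ADH4 was closest to APT1, an adenine salvage enzyme (r = 0.951), PRS5, a phosphoribosyl pyrophosphate synthetase (0.949), and SEC14, a phospholipid transfer protein (0.944). ADH5 ran with YHI9 (0.943), TMT1, a methyltransferase (0.94), and YCR023C (0.939). The decarboxylase genes had looser partners: PDC1 had YCR051W (0.767), PRS2 (0.767) and URA3 (0.754), PDC5 had YKE4 (0.779), ROG3 (0.765) and YFH1 (0.763), and PDC6 had YOR389W (0.836), OYE3 (0.827) and PTR2 (0.816). FDH1 and YOR389W have close copies elsewhere in the yeast genome, so their counts are uncertain. Of the upstream windows of these 24 partners, 4 held 1 TTGGAG match each (FDH1, POT1, PTR2 and PRS5) and 1 held a TGACTCA match (TMT1), against 11.4% and 2.88% of all windows; ALT2 held neither.

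Of 19 genes of pyruvate kinase, pyruvate import, pyruvate dehydrogenase, pyruvate carboxylase, aldehyde dehydrogenase and acetyl-CoA synthetase, 6 were higher and 0 lower in W89A at time point 2, against 8.44% of all genes higher and 4.64% lower, with a median log2 fold change of 0.28 against 0 for all genes. Among the 6 were ALD5, a mitochondrial aldehyde dehydrogenase (1.25 ± 0.24, edgeR adjusted p = 0.00167), and ACS2, an acetyl-CoA synthetase (0.72 ± 0.16, 0.00352). At time point 3, 4 were higher and 10 lower, against 28.2% and 22.9% of all genes, with a median of -0.53 against 0.08. ALD5 was then 2.04 ± 0.25 higher (edgeR adjusted p = 4.52e-07), while ALD2, a stress-induced aldehyde dehydrogenase, fell by 1.53 ± 0.21 (2.27e-06) and LAT1, a pyruvate dehydrogenase subunit, by 0.83 ± 0.12 (3.82e-06). MPC3, a pyruvate carrier subunit, was the 1 gene called at time point 1, 0.98 higher. The 2 called at time point 4 were MPC1, another carrier subunit (-0.82), and ALD6, the cytosolic aldehyde dehydrogenase (-0.80).

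The other alcohol dehydrogenases and aldehyde reductases were lower in W89A on average over the cycle in all 6 of the 6 tested, against 21.7% of all genes, with a median of -0.31 against 0.02 for all genes; a seventh, ADH7, was not tested. At time point 1 ARI1, an aldehyde reductase, fell by 1.37 ± 0.21 (edgeR adjusted p = 0.00108), and at time point 3 BDH1, butanediol dehydrogenase, fell by 1.44 ± 0.17 (1.98e-07). At time point 3, 4 of these 6 passed the test as lower, against 22.9% of all genes.

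Of 10 regulators of these genes, 7 were higher and 0 lower in W89A on average, against 27.1% and 21.7% of all genes, with a median of 0.24 against 0.02. PDC2, the activator of PDC1 and PDC5, was 0.42 ± 0.06 higher on the log2 scale (edgeR adjusted p = 1.18e-06). ADR1, the activator of ADH2, averaged 195.5 ± 45.5 CPM in W89A and 108.5 ± 23.1 CPM in WT at time point 2 (SD, n = 3 each), a rise of 0.85 ± 0.21 (SE, edgeR adjusted p = 0.0106). At time point 3 it averaged 414.1 ± 115.5 CPM in W89A and 689.7 ± 58.4 CPM in WT (SD, n = 3 each), and fell by 0.74 on the log2 scale.

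**Figure D5:**
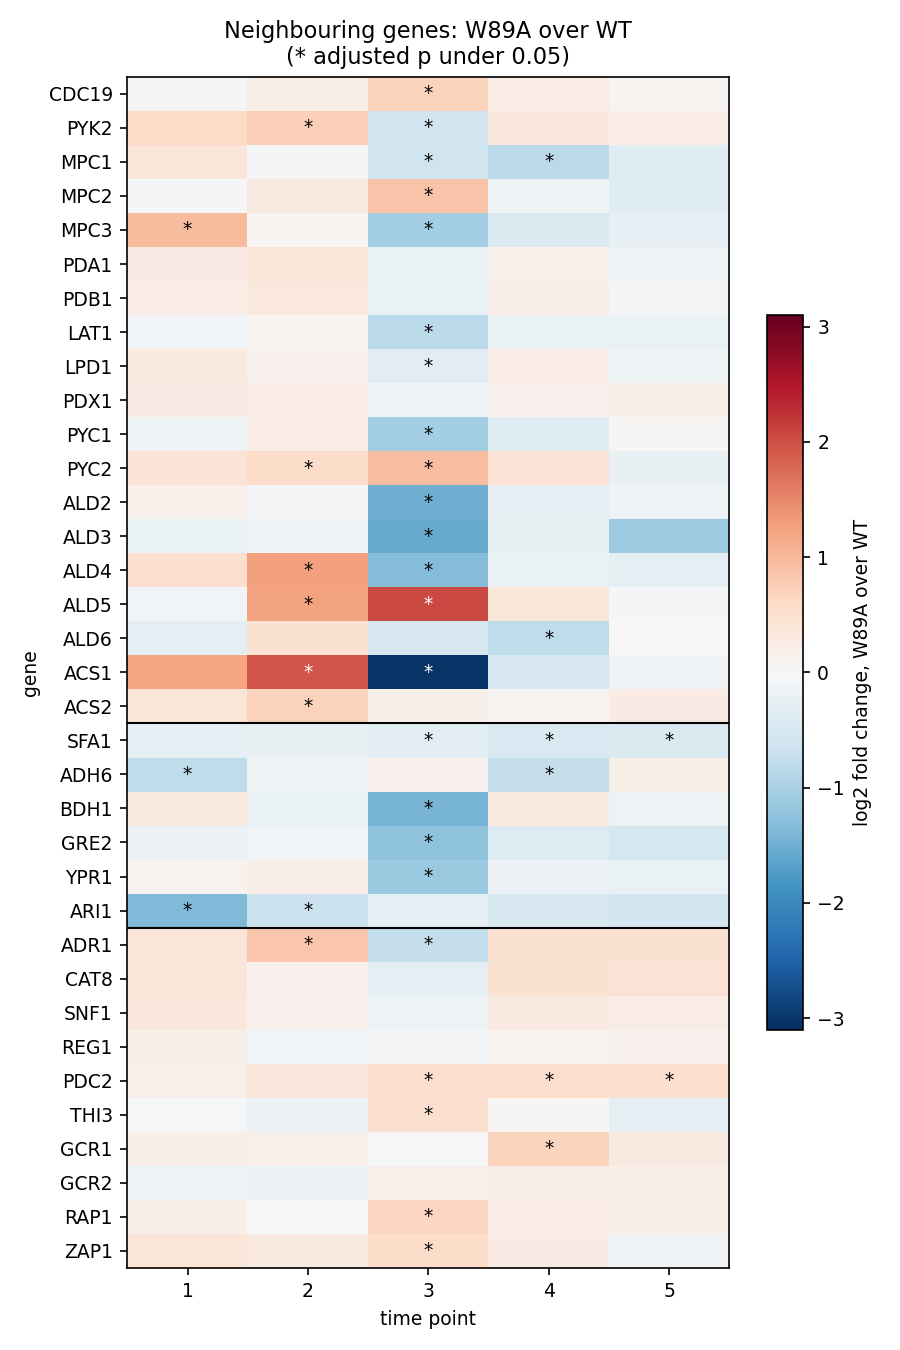
Log2 fold change of W89A over WT (colour) for 19 neighbouring enzyme genes, 6 other alcohol dehydrogenases and reductases and 10 regulators (rows, separated by lines) at the 5 time points (columns); stars mark an edgeR adjusted p under 0.05. ACS1 has 1.96 at time point 2 and -3.05 at time point 3, and ALD5 has 1.25 and 2.04.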

How the data were processed

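RNA was sequenced in 30 libraries (10 groups of 3), with 16540627 to 20260295 counts each. The authors deposited whole-number read counts per gene, unnormalised by their values, and tables of their own comparison at every time point. Those tables hold p-values, raw and adjusted by the authors, and log2 fold changes. Per the submitters' processing notes the genome build is mm9, a mouse build; the coordinates of the 8 genes in the deposited tables are those of yeast R64. The aligner, the counting tool, strand use and the treatment of reads with several matches are not given in the sources used here.

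Counts were fitted with edgeR 4.0.16 in R 4.3.3: TMM scaling, filterByExpr (871 of 7127 features removed, 333 of them with no count, 6256 tested), 1 mean per group over all 30 libraries (common biological coefficient of variation 0.164) and quasi-likelihood F tests with p adjusted over the tested genes by Benjamini and Hochberg, threshold 0.05, two-sided. Comparisons were W89A over WT at each time point and on average, the interaction of strain and time point, and the change over each strain's cycle, whose size is the range of its fitted log2 values. The SE is the size of the log2 fold change over the square root of F. CPM use the TMM-scaled totals, and log2 CPM a prior count of 2. The procedure was run on simulated independent counts with changes planted in 1 group. Those counts had no time, cycle or culture effect, so they cannot show how the tests behave under such effects. Sequences came from RefSeq R64, and identities from global alignment with Biopython 1.88.

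Within a strain the labels give the cycle, so libraries of a cycle number belong together; between strains only the number is shared. The 8 genes and the gene lists were chosen with earlier results of these data known. Named genes of a list are, in each comparison, up to 2 per direction with the smallest p among those that passed; ACS1 was named after its values were seen. Alternatives were DESeq2 1.42.0, other scalings, no filter on low counts, replicate blocks, the title order of 2 libraries and leaving out libraries, run for the 8 genes and for counts of calls.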

Additional observations from a re-analysis of the deposited data

Results flagged for a closer look

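For 4 genes the difference between W89A and WT was itself different between time points, by the edgeR test of the interaction over the 5 time points: PDC1 (adjusted p = 0.0048), ADH2 (0.0132), ADH3 (0.00116) and ADH5 (8.89e-05). PDC1 was lower in W89A at time points 1 and 2 and at 0.34 on the log2 scale at time point 3, where it did not pass the test. ADH2 had log2 fold changes of 1.002 at time point 1 and -1.43 at time point 3, ADH3 was lower in W89A at time point 3, and ADH5 was higher at time points 1 to 4. No group held enough libraries for a test of single values that stand apart.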

How the results depend on the processing

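None of the fold changes of the 8 genes that passed its test turned its sign under any alternative. Of the 8 genes, those called numbered 3 at time point 1 and 5 at time point 3. With W89A cycle 1 at time points 4 and 5 placed by title they numbered 1 and 3. All genes called were then 178 and 2942, against 501 and 3197. Time point 2 had 2, against 4 with DESeq2, which called 1029 of all genes there, against 818. Time point 4 had 2, against 1 with WT time point 1 cycle 1 and W89A time point 4 cycle 3 left out. That fit called 1515 of 6302 genes, against 1334 of 6256. Time point 5 had 0, against 1 with only the 6 libraries of that time point. Those 6 gave 1086 of 6007 genes, against 595 of 6256. For the interaction, 4 were called, against 1 without time point 3. All genes called there were 458 of 6222, against 2620 of 6256. These last 3 alternatives were chosen after seeing the data. Leaving out 1 library at a time gave 1 call at time point 1 in all 6 fits, and 2 to 3, 3 to 5, 1 to 2 and 0 calls at time points 2 to 5. It gave 4 calls on average, 4 to 5 for the interaction, 6 to 8 for the WT cycle and 7 for the W89A cycle. Over all genes these fits called 73 to 474, 319 to 859, 2690 to 3063, 668 to 1459 and 125 to 575 at time points 1 to 5. They called 2883 to 3071 on average and 2228 to 2895 for the interaction. For the WT cycle they called 4948 to 5071, and for the W89A cycle 4563 to 4730.

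By title order, 8 calls were lost: PDC1 (adjusted p = 0.0782) and PDC5 (0.0964) at time point 1, ADH2 (0.0648) and ADH4 (0.05) at time point 3, ADH2 in the interaction (0.0515), PDC5 over the WT cycle (0.069), and ADH1 (0.293) and ADH3 (0.143) over the W89A cycle. For libraries of the same cycle number in the 2 strains, deviations from the group means were correlated at -0.22 to 0.28. Of these 15 pairs, 3 lay above 0.1. Libraries of the same cycle within a strain gave medians of 0.0074 to 0.0625, so this check cannot tell whether the numbers are paired. With the cycle number as a replicate block, 3 of the 8 genes were called at time point 2 (867 of all genes). In the interaction 6 were called (2712 of all genes), where PDC5 had an edgeR adjusted p of 0.0414. The median of all genes at time point 3 was 0.08, or -0.05 with TMM leaving out mitochondrial genes and the 10 genes with most counts, and the calls split 1767 higher and 1430 lower, or 1398 and 1837.

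Over all genes, 501 were called at time point 1, against 178 by title order, 784 with DESeq2 and 837 with 6 libraries only. Time point 1 had 73 without WT time point 1 cycle 1. With W89A time point 4 cycle 3 left out as well it had 197. Time point 2 had 818, against 486 by title order and 319 without WT cycle 1. Time point 4 had 1334, against 842 without W89A cycle 1 of time points 4 and 5, 487 with 6 libraries only and 668 without WT cycle 3. Time point 5 had 595, against 362 by title order, 116 without W89A cycle 1 of time points 4 and 5, 1086 with 6 libraries only and 125 without W89A cycle 1. The interaction had 2620, against 458 without time point 3. The cause of these changes was not tested. With 3 libraries per group, a difference that missed the threshold is not shown to be absent.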

Other observations

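In the authors' deposited tables, 11 of the 40 pairs of gene and time point passed both there and in the fit described above, 5 passed only in the deposited tables and 1 only in the fit. The log2 fold changes of these sources differed by at most 0.06.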
